A study of Mus musculus with 10 samples.

Results

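AP-1 is a family of dimeric transcription factors, and its genes were described here in ribosome-bound RNA of striatal neurons that use the dopamine D2 receptor gene, after mice had self-administered saline or cocaine. The members were the rows of the count tables with the symbols Fos, Fosb, Fosl1, Fosl2, Jun, Junb, Jund, Batf and Batf3, which are 9 of 32531 gene symbols. All samples came from the whole striatum of adult mice, and the line was Drd2-TRAP CP101 (Drd2-EGFP/Rpl10a), in which the Drd2 gene's regulatory sequence drives ribosomal protein L10a fused to EGFP. Controls and cocaine mice alike carried this transgene and took their infusions intravenously in short access sessions. RNA was immunopurified (IP) on tagged ribosomes in 3 saline libraries (numbers 1, 2 and 4) and 5 cocaine libraries (numbers 1 to 5), and there was 1 saline input library and 1 cocaine unbound library. In the striatum the Drd2 driver marks mostly indirect-pathway medium spiny neurons (MSNs), but cholinergic interneurons use Drd2 as well. Nothing in the labels tells whether each library stands for its own animal or animals, so the spread behind a p-value is that between these samples and may be technical. The labels also do not give the time between the last session and dissection.

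AP-1 proteins bind DNA as pairs through a basic leucine zipper (bZIP). Fos proteins pair only with a partner such as a Jun protein, while Jun proteins can also pair with each other, and Batf proteins pair with Jun proteins but have no activating domain of the kind Fos has. Fos and Junb are immediate early genes, whose transcripts rise within minutes of neuronal activity and decay quickly, while Jund is made steadily in most cells. In the striatum the family is best known for a truncated splice product of Fosb, called deltaFosB, that accumulates with repeated drug exposure. Counts per gene do not separate it from full-length Fosb.

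Gene reads came to between 22975667 and 31631137 per IP library, with 18408782 reads for the input and 20882691 for the unbound RNA, and levels are given as CPM (gene reads scaled to a library total of 1000000). The floor was set at 3 reads, which amounts to 0.0948 CPM in the deepest IP library and 0.131 CPM in the shallowest. All 8 of 8 markers of indirect-pathway MSNs were at least 2-fold higher in every saline IP library than in the input, and 8 of 8 direct-pathway, 8 of 8 astrocyte and 8 of 8 oligodendrocyte markers were at least 2-fold lower. So were 6 of 7 measured GABA interneuron markers. Of 5 measured cholinergic interneuron markers, 0 passed 2-fold in every library in either direction (median log2 ratio -0.63). Against the unbound RNA, 8 of 8 indirect-pathway markers were higher, 7 of 8 direct-pathway markers lower and 0 of 5 cholinergic ones past 2-fold (median -0.30). Sequencing lane, as the sample descriptions give it, was not balanced. Saline IP 1 and 2 were run in lane 7, saline IP 4 with cocaine IP 1 and 2 in lane 6, cocaine IP 3, 4 and 5 in lane 4, and the input and unbound libraries in lane 1. Lane 4 held cocaine libraries only, so in it lane and treatment cannot be told apart. In these bulk samples, fewer cells of a type and less RNA per cell cannot be told apart either.

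The stretches just upstream of the transcription starts of Fos, Fosb, Jun and Junb are shown because these genes are controlled by neuronal activity and yet behaved differently across the libraries described further on. They come from RefSeq on GRCm38.p6. Those of Fos, Jun and Junb end next to the RefSeq start, that of Fosb ends next to the GENCODE start, 6 bases before the RefSeq one, and each is written 5′ to 3′ on the gene's own strand. The stretches cover chr12:85473640-85473889 on the plus strand for Fos, chr7:19310052-19310295 on the minus strand for Fosb, chr4:95052223-95052472 on the minus strand for Jun and chr8:84978749-84978998 on the minus strand for Junb. Capitals mark TGACG, the first letters of the cAMP response element TGACGTCA, or in Jun the variant TGACATCA.
Fos: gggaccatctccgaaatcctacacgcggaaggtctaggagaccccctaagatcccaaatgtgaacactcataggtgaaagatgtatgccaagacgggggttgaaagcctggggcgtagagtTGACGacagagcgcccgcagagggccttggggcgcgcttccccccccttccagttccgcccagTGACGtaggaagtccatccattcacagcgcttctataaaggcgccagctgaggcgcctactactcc
Fosb: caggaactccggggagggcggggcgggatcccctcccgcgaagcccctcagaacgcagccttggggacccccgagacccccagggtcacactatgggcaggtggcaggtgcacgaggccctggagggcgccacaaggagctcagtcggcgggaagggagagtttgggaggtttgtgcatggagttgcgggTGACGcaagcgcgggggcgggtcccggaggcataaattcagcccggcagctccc
Jun: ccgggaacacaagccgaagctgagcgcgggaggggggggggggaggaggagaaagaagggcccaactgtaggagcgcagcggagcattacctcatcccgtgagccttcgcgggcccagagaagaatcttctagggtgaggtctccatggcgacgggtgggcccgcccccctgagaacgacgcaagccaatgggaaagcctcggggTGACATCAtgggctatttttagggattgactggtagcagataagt
Junb: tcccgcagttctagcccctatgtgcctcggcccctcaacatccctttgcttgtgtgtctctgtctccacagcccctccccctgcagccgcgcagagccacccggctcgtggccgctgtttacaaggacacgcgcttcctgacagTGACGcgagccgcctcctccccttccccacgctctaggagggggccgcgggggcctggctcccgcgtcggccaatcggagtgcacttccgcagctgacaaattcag

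Matches were searched on both strands in the 250 bases before each RefSeq start. Sites farther upstream, also of these motifs, were outside the search. The full element TGACGTCA, the AP-1 site TGACTCA and the CArG box, the serum response factor motif, occurred in 0 of the 8 members with an entry, against 1.55%, 4.46% and 1.47% of 32851 promoters. For Jund, Fosl2, Batf and Batf3, 4 of these 8, the GENCODE start lies at 1210, -671, -51 and -567 bases from the RefSeq one, so their windows may lie away from the start used. The shorter TGACG, which every TGACGTCA contains, occurred in 17.8% of promoters and in 4 members. Counted back from the RefSeq start, Fos held it at bases -129 to -125 and again at -66 to -62, Fosb at -60 to -56 and Junb at -106 to -102. Batf was the other member with a match. TGACATCA occurred in 2.93% of promoters and in Jun at -45 to -38. TGACG and TGACATCA were added to the search after the windows had been seen. These matches describe letters and are not evidence of binding.

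Jund and Junb were the most abundant AP-1 transcripts on D2 ribosomes, and Fos was scarce. Levels of different genes were compared as CPM per kilobase of exon, with exon lengths from GENCODE on GRCm38. Over the 8 IP libraries, Jund came to 39.3 ± 8.62 CPM per kilobase (SD), Junb to 11.9 ± 3.17, Fosl2 to 2.85 ± 1.07, Jun to 2.80 ± 0.653, Fosb to 1.99 ± 0.406 and Fos to 0.675 ± 0.495. Jund exceeded Junb, Junb exceeded Fosl2 and Fosb exceeded Fos in all 8 IP libraries and in the input and unbound libraries, with no overlap of the IP ranges. Fosl2 and Jun could not be ordered, since Fosl2 was the higher in 4 of 8 IP libraries, and the ranges of Jun and Fosb overlapped although Jun was the higher in 7 of 8. These lengths join all annotated exons of a gene, and the authors' own annotation is not given in the sources used here.

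Jund took 67.3% to 78.7% of the Jun family's summed level per kilobase in the IP libraries. Within the Fos family, Fosl2 and Fosb together made up most of the level in every library, and the share of Fos was lower in the lane 4 libraries than in all others. Fos made up 13.4% to 18.1% of the Fos family in the saline IP libraries, 16.8% and 16.5% in the cocaine libraries of lane 6, and 2.999% to 3.54% in the cocaine libraries of lane 4. In the input the share was 8.92% and in the unbound library 17.9%. The Jun family's summed level exceeded the Fos family's in every library, by 6.56-fold in cocaine IP 1 up to 23.4-fold in cocaine IP 5 among the IP libraries.

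**Figure D1:**
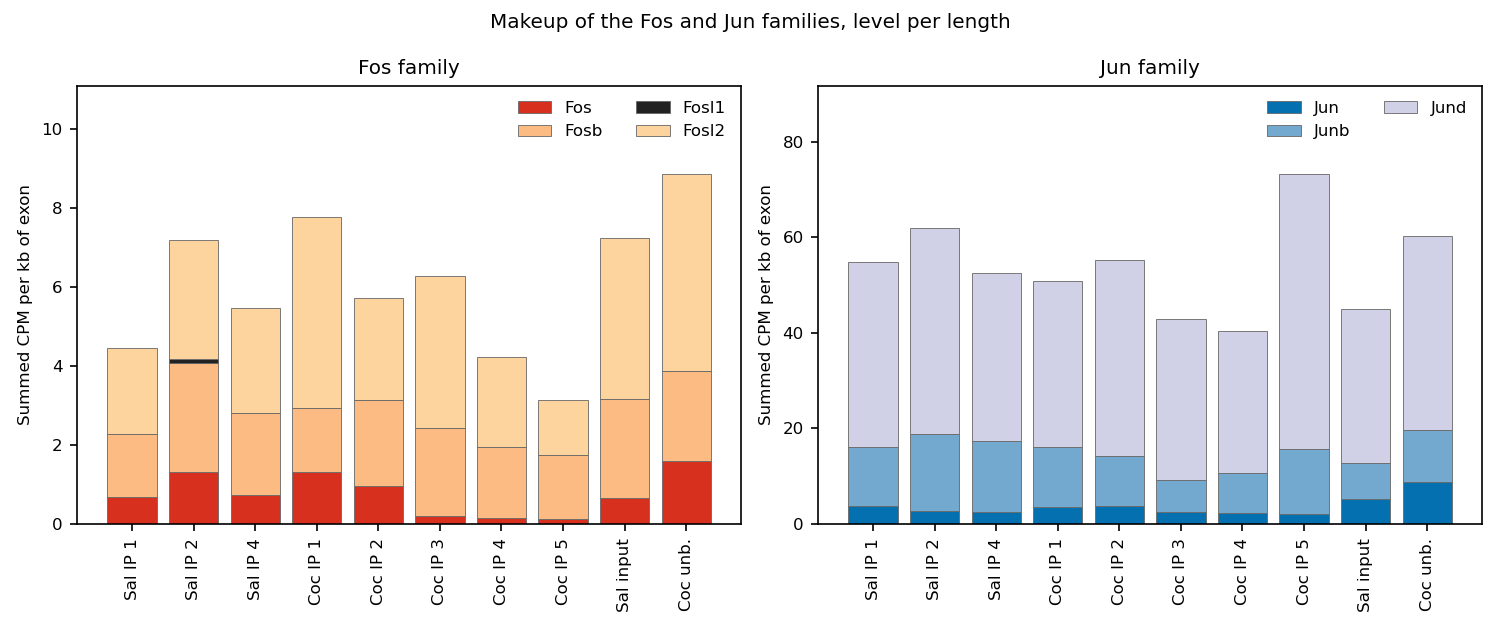
Summed level of the Fos family (left) and the Jun family (right) in each library, in CPM per kilobase of exon, with bars split by gene; Sal and Coc stand for saline and cocaine, unb. for unbound. The Fos segment shrinks to 2.999% to 3.54% of its family in cocaine IP 3, 4 and 5, and Jund fills 67.3% to 78.7% of the Jun family in the IP libraries.

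The Fos proteins are described first. Fos, the immediate early gene that gives the family its name, lies at chr12:85473890-85477273. It was counted at 1.60, 3.07 and 1.72 CPM in saline IP 1, 2 and 4 (50, 90 and 47 reads). Cocaine IP 1 and 2, both from lane 6, gave 3.07 and 2.22 CPM (97 and 62 reads), while cocaine IP 3, 4 and 5, all from lane 4, gave 0.443, 0.312 and 0.261 CPM (14, 8 and 6 reads). The cocaine libraries thus fell into a pair within or at the edge of the saline range and 3 libraries below every saline library. The input held 1.52 CPM of Fos and the unbound library 3.74 CPM.

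Fosb, the source of deltaFosB, lies at chr7:19302696-19310051 and was steadier. It was counted at 9.96, 17.2 and 12.96 CPM in saline IP 1, 2 and 4 and at 10.1, 13.7, 13.9, 11.3 and 10.2 CPM in cocaine IP 1 to 5. All cocaine values lay inside the saline range, and lanes 4 and 6 overlapped. The input held 15.7 CPM and the unbound library 14.2 CPM, both within the range of the saline IP libraries.

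Fosl2, which encodes Fra-2, lies at chr5:32135801-32157842. Its level was 21.03, 29.4 and 25.75 CPM in saline IP 1, 2 and 4 and spread more widely after cocaine, at 46.9, 24.99, 37.4, 22.1 and 13.5 CPM in cocaine IP 1 to 5. The cocaine libraries reached both above and below all saline libraries, and the input (39.55 CPM) and unbound library (48.6 CPM) were higher than 7 of 8 and 8 of 8 IP libraries. Fosl1, which encodes Fra-1 and lies at chr19:5447547-5455946, had 6 reads in saline IP 2 (0.204 CPM) and 0 reads in the other 9 libraries, where a count of 0 allows up to 0.0948 to 0.163 CPM.

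Of the Jun genes, Jun lies at chr4:95049034-95052222 and encodes c-Jun, the partner whose activity is raised by JNK kinases. Its level was 11.5, 8.14 and 7.63 CPM in saline IP 1, 2 and 4, and 11.15, 11.4, 7.52, 7.34 and 6.57 CPM in cocaine IP 1 to 5. All 3 lane 4 libraries were below the other 5 IP libraries, and both lane 6 cocaine libraries were near the highest saline one. The input held 16.35 CPM and the unbound library 27.5 CPM, above every IP library. An antisense gene model, Junos, overlaps Jun and is not among the counted symbols.

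Junb, an activity-regulated Jun gene that can restrain c-Jun, lies at chr8:84974484-84978718. It was counted at 28.6, 37.1 and 34.1 CPM in saline IP 1, 2 and 4 and at 29.1, 24.35, 15.7, 19.05 and 31.2 CPM in cocaine IP 1 to 5. Cocaine IP 1 and 5 lay in the saline range and the other 3 cocaine libraries below it. The input held 17.6 CPM, under every saline IP library, and the unbound library 25.4 CPM. Prdx2, a peroxidase gene on the opposite strand, overlaps Junb, and whether counting used strand is not given in the sources used here. Prdx2 came to 149 to 178.5 CPM in the IP libraries, 109.8 CPM in the input and 71.35 CPM in the unbound library, and its part in the Junb values was not tested.

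Jund, the steadily expressed Jun gene and a partner of deltaFosB in the striatum, lies at chr8:70698949-70700616. Its level was 64.6, 72.1 and 59.05 CPM in saline IP 1, 2 and 4 and 58.0, 68.7, 56.2, 49.5 and 96.4 CPM in cocaine IP 1 to 5. Cocaine IP 5 was the highest of all 10 libraries for Jund and the lowest IP library for Fosl2, Fos and Jun. Among the IP libraries it also had the fewest gene reads and the lowest share of the ribosomal RNA gene Rn45s (1.5% of gene reads, against 4.67% to 7.30% in the other IP libraries), and the part of either in these values was not tested. A predicted antisense model, Gm11175, overlaps Jund and is not among the counted symbols.

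Batf and Batf3, best known from lymphocytes and dendritic cells, were at or near the floor. Batf, at chr12:85686669-85709087, had 1 read in saline IP 2, 1 in the input and 0 in the other libraries. Batf3, at chr1:191097847-191108945, had 14, 3 and 2 reads in saline IP 1, 2 and 4, then 3, 4, 2, 0 and 0 reads in cocaine IP 1 to 5, and 1 read each in the input and unbound libraries. Saline IP 1 was the one library clearly above the floor, at 0.448 CPM. Neither gene, nor Fosl1, passed the filter on low counts, so 6 of the 9 members entered the tests.

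**Figure D2:**
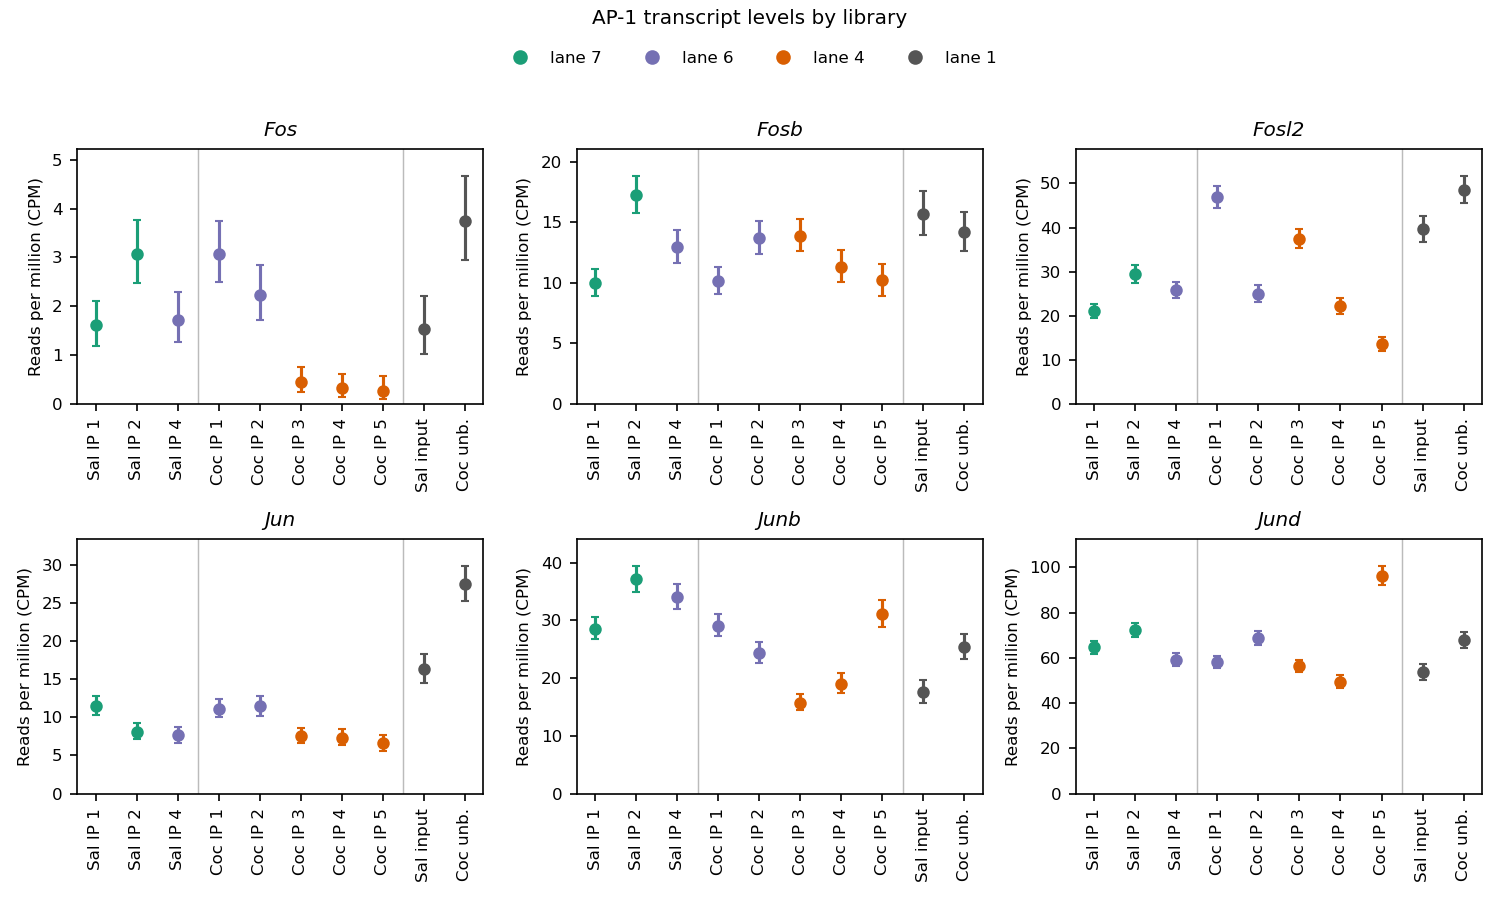
Level of the 6 measurable members in each library in CPM, with exact 95% Poisson intervals that cover counting error only and colours for the sequencing lane; Sal and Coc stand for saline and cocaine, unb. for unbound. Fos is at 0.443, 0.312 and 0.261 CPM in the 3 lane 4 libraries and at 1.60 to 3.07 CPM in the other IP libraries, a split that Fosb, Fosl2, Junb and Jund do not show.

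The first comparison asked whether the members differ between cocaine and saline in D2 ribosome-bound RNA. It found 0 of the 6 tested members changed at an adjusted p of 0.05 by edgeR's quasi-likelihood test, against 0% of all 13800 genes tested, and 295 genes had an unadjusted p under 0.05. The saline and cocaine ranges overlapped for all 6 members, while 1.19% of all genes were lower and 1.15% higher with no overlap, and the members' median log2 difference was -0.10, beside 0.01 for all genes. Junb had the smallest p. Its TMM-scaled mean was 23.9 CPM after cocaine and 33.2 CPM after saline, a log2 difference of -0.47 (SE 0.20, 95% interval -0.92 to -0.03; edgeR unadjusted p = 0.0385, adjusted p = 0.9998). It was the only member with an unadjusted p under 0.05, where 1.04% of all genes were lower at that threshold. With the replicate number as a block over numbers 1, 2 and 4, Junb stood at -0.47 (edgeR unadjusted p = 0.00317, adjusted p = 0.565). In that fit 3.61% of genes were lower at an unadjusted 0.05. This was the smallest p of Junb over the settings, and each matched pair also differs in lane. The same 6 libraries without the block gave an edgeR unadjusted p of 0.0306, and leaving out the 3 lane 4 libraries gave 0.114. With 1 library left out it ran from 0.0138 to 0.134. The number-matched log2 differences of Junb were 0.05 for number 1, -0.59 for number 2 and -0.86 for number 4.

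For Fos the log2 difference was -0.73 with an SE of 0.69 and a 95% interval of -2.25 to 0.79 (edgeR adjusted p = 0.9998). Its number-matched differences ran in both directions, at 0.96, -0.45 and -2.48 for numbers 1, 2 and 4. Every matched pair crosses lanes. Numbers 1 and 2 set a lane 7 saline library against a lane 6 cocaine library, and number 4 a lane 6 saline library against a lane 4 cocaine library. The sign of the fitted difference was not stable. It was 0.61 with lane as a covariate, a value that rests on lane 6 alone, where 1 saline library meets 2 cocaine libraries, and the lone library is taken to vary like the others. Without the 3 lane 4 libraries it was 0.31. Leaving out 1 library at a time gave -1.36 without cocaine IP 1, -1.03 without cocaine IP 2, -0.36 without saline IP 2, and -0.52 to -0.49 without any one lane 4 library. Jun also turned, with -0.03 (SE 0.22), 0.55 with lane as a covariate and 0.31 without lane 4, while Junb kept its sign at -0.37 and -0.32. None of these passed the adjusted threshold.

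The remaining members differed by less than their errors. The log2 differences were -0.17 for Fosb (SE 0.20, 95% interval -0.61 to 0.27), 0.20 for Fosl2 (SE 0.32, -0.50 to 0.90) and 0.02 for Jund (SE 0.19, -0.40 to 0.44). For Fosb the interval leaves room for a level lower by 0.61 or higher by 0.27 on the log2 scale. The interval of Fosl2 was wide, with cocaine libraries that spread from 13.5 to 46.9 CPM, and its number-matched differences were 1.18, -0.22 and -0.24.

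**Figure D3:**
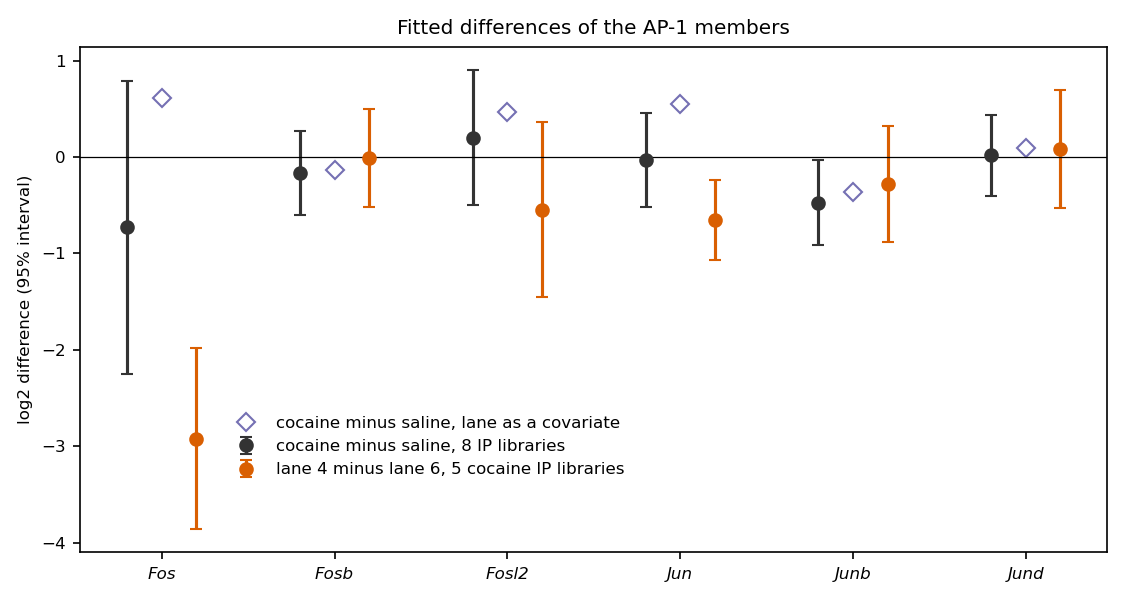
Fitted log2 differences of the 6 tested members with 95% intervals, for cocaine minus saline over 8 IP libraries (black) and lane 4 minus lane 6 over the 5 cocaine IP libraries (orange); open diamonds give cocaine minus saline with lane as a covariate, which rests on 1 saline and 2 cocaine libraries of lane 6, without intervals. Fos reads -0.73 for cocaine minus saline, 0.61 with lane as a covariate and -2.92 between the lanes.

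Within the cocaine group, lane 4 was set against lane 6 to show the size of the split on its own. Lane 6 held cocaine IP 1 and 2 and lane 4 held cocaine IP 3, 4 and 5. Sequencing lane thus cannot be told apart from anything else that these sets of libraries share, such as animals or rounds of preparation. Fos was 7.58-fold lower in lane 4, with TMM-scaled means of 0.340 CPM in lane 4 and 2.64 CPM in lane 6 and a log2 difference of -2.92 (SE 0.41, 95% interval -3.86 to -1.98; edgeR unadjusted p = 7.83e-05, adjusted p = 0.862). This was the smallest p of all 13746 genes tested, of which 0% were called, while 744 had an unadjusted p under 0.05. The adjusted p of Fos depended on the setting. It was 0.000322 with no filter on low counts and 0.9992 without cocaine IP 3. Leaving out cocaine IP 1 or 2 leaves 1 library in lane 6, and there the log2 difference was -2.702 or -3.105. DESeq2 gave an unadjusted p of 1.34e-07 and no adjusted value. The lane 4 values rest on 14, 8 and 6 reads, all above the floor.

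Jun was the other member whose lanes did not overlap. It averaged 7.16 CPM in lane 4 and 11.3 CPM in lane 6, a log2 difference of -0.66 (SE 0.18, 95% interval -1.07 to -0.24; edgeR unadjusted p = 0.00621, adjusted p = 0.862). Thus 2 of 6 members were lower in lane 4 without overlap, beside 12.5% of all genes that were lower and 9.81% that were higher without overlap. The same 2 members had an unadjusted p under 0.05, as did 2.32% of all genes in the lower direction. Fosl2 (-0.55, SE 0.40, from -1.01 without cocaine IP 3 to -0.06 without cocaine IP 1), Junb (-0.28, SE 0.26, from -0.61 without cocaine IP 5 to -0.10 without cocaine IP 3), Fosb (-0.01, SE 0.22) and Jund (0.08, SE 0.27) overlapped between lanes. Whether the members' differences differ from one another was not tested.

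Markers of D2 neurons and of other cells were read beside this split, where 50.4% of all genes had a lower fitted mean in lane 4. Of 6 markers of pallial glutamatergic neurons, 6 had lower fitted means in lane 4 than in lane 6, with a median log2 difference of -0.74 and 0 called by edgeR. Their summed level was 24.35 and 25.1 CPM in the lane 6 cocaine libraries, 2.498, 21.8 and 21.6 CPM in cocaine IP 3, 4 and 5, and 171 CPM in the input. In saline IP 1, 2 and 4 the sums were 13.4, 3.41 and 17.5 CPM, and Slc17a6 was at 0 in saline IP 2 and in no other IP library. Of 6 cholinergic interneuron markers, 5 had lower means in lane 4, with sums of 21.9 and 46.3 CPM in lane 6 and 24.98 to 29.5 CPM in lane 4, and 0 of them were at 0 in any library. Of 8 oligodendrocyte markers, 7 had lower means in lane 4 (median -0.32), with sums of 215 to 473.5 CPM in lane 6 and 264 to 305 CPM in lane 4. Of 6 tested GABA interneuron markers, 4 were lower (median -0.58), with overlapping sums of up to 21.8 CPM in lane 6 and up to 14.6 CPM in lane 4, and Vip was at 0 in cocaine IP 3. Of 8 direct-pathway markers, 6 had higher means in lane 4 (median 0.31), with sums of 108 to 140 CPM in lane 6 and 134.5 to 174 CPM in lane 4. Of 8 astrocyte markers, 5 were higher and 3 lower (median 0.08), and 2 had an edgeR unadjusted p under 0.05, as did 744 of all 13746 genes. Of 6 tested microglia markers, 4 were higher and 2 lower (median 0.26). Of 2 tested endothelial and mural markers, 1 was higher and 1 lower. The 8 indirect-pathway markers parted into 4 higher and 4 lower (median -0.01). For cocaine against saline, 48.4% of all genes were lower and 0 markers were called by edgeR. There 6 pallial markers were higher and 0 lower (median 0.72), and 1 oligodendrocyte marker was higher and 7 lower (-0.24). Microglia markers split 1 higher to 6 lower, astrocyte 3 to 5, GABA interneuron 3 to 4 and cholinergic 3 to 3. Direct-pathway markers split 6 to 2 (0.165), indirect-pathway 5 to 3 (0.015), endothelial and mural 2 to 0. The part of these cells in the members' values was not tested.

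The genes with the nearest patterns to Fos across the 8 IP libraries depended on how low levels were treated. Likeness was the root mean square difference of log2(TMM CPM + 1), each gene centred on its mean, over genes averaging 5 CPM or more. Among 9269 genes the closest was Arc, an immediate early gene of synapses, at 0.160, beside a spread of 0.664 for Fos itself. Dusp6 and Dusp1, phosphatases that switch off MAP kinases, followed at 0.364 and 0.404, and Flywch2 at 0.404. Arc lay between 12.8 and 16.2 CPM in lane 4 and between 28.8 and 47.6 CPM in the other IP libraries, so like Fos it was lower in every lane 4 library. Fos itself is near the 1 CPM added before logs. With 0.1 CPM added Arc still ranked 1, at 0.598 beside a spread of 1.23 for Fos, followed by Nr4a1, Egr2 and Hist1h4d, and Dusp6 and Dusp1 ranked 5 and 11. With 5 CPM added, more than any Fos level, Arc ranked 6372 and the nearest 4 were Sytl2, Uqcc2, Nrgn and Flywch2. Between the cocaine libraries of lanes 4 and 6, Arc differed by -1.24 (SE 0.19; edgeR unadjusted p = 0.000155, adjusted p = 0.862). Its adjusted p ran from 0.000271 to 0.9992 over the alternatives, some of which leave 1 library in lane 6.

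Other members had other neighbours. The 4 genes nearest to Fosb were Dos (0.070), Tor1a (0.072), Atp6v0e2 (0.074) and Ube3b (0.077), where the spread of Fosb was 0.260. The 4 nearest to Junb were Krt12 (0.179), Arl4d (0.184), Snhg3 (0.186) and Cxx1a (0.188), where the spread of Junb was 0.373. No gene appeared among the nearest 4 of more than 1 of these 3 members.

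**Figure D4:**
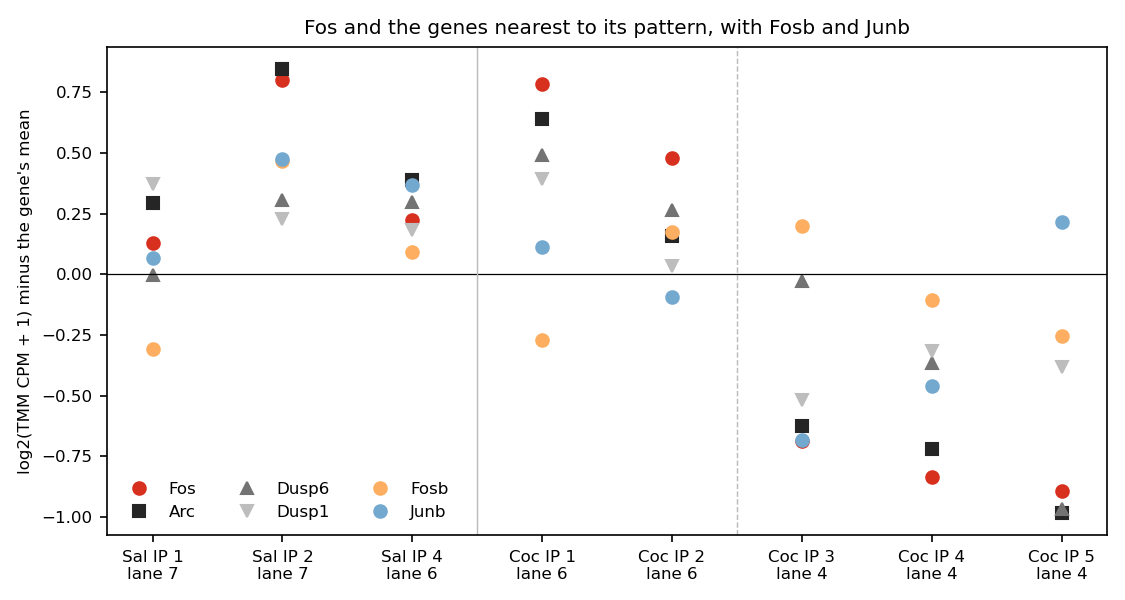
Level of Fos, the 3 genes nearest to it (Arc, Dusp6, Dusp1), Fosb and Junb in each IP library, as log2(TMM CPM + 1) minus the gene's mean, nearest with 1 CPM added; Sal and Coc stand for saline and cocaine, the solid line parts the treatments and the dashed line parts the cocaine lanes. Fos and Arc lie below their means in all 3 lane 4 libraries and above them in the other 5, while Fosb and Junb each lie on both sides within lane 4.

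The IP libraries were next set against the input or the unbound RNA, each a single library. Both references were run in lane 1, which held no IP library, so fraction and lane cannot be told apart in these ratios. Ratios were taken on the log2 scale after adding 1 to TMM-scaled CPM, with no p because each reference is 1 library. A gene was called when every IP library passed 2-fold in the same direction. Against the input, 0 of 6 members were called, beside 1.64% of 12902 genes higher and 11.6% lower, and the median ratio of all genes was 0.13. Junb came nearest. Its ratios were 0.85, 1.27 and 1.16 in saline IP 1, 2 and 4, a mean of 1.09 ± 0.22 (SD, n = 3) that exceeded the ratio of 97.5% of genes, and 2 of 3 libraries passed 2-fold. Scaled by library size alone the mean was 0.87, and without saline IP 1, where it was 1.21, Junb was called higher.

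The other Jun genes parted in direction against the input. Jund had a mean ratio of 0.50 ± 0.14, positive in 3 of 3 libraries, and Jun one of -0.59 ± 0.26, negative in 3 of 3. With library size alone, which moves the median of all genes from 0.13 to -0.09, Jund stood at 0.27 and Jun at -0.80. Of the Fos genes, Fos had a ratio of 0.42 ± 0.37, Fosb of -0.03 ± 0.39 and Fosl2 of -0.41 ± 0.26. Fosb had both signs among its libraries.

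Against the unbound RNA, 0 of 6 members were called, beside 3.78% of 12643 genes higher and 9.74% lower, and the median of all genes was 0.17. Jun was the closest to a call. Its ratios were -1.08, -0.97, -1.54, -1.58 and -1.74 in cocaine IP 1 to 5, a mean of -1.38 ± 0.34 (SD, n = 5), with 4 of 5 libraries past 2-fold. The call on Jun turned to lower when 0.1 CPM was added before taking logs, with library size alone, without cocaine IP 2, or in the lane 4 libraries alone. Fos had ratios of -0.10 and -0.38 in the lane 6 libraries and -1.57, -1.72 and -1.78 in those of lane 4, so its mean of -1.11 ± 0.81 joins separate ranges. It was -0.24 in lane 6 alone and -1.70 in lane 4 alone, where Fos was called lower. The mean was -1.90 with 0.1 CPM added before logs and -0.43 with 5 CPM.

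Fosl2 averaged -0.65 ± 0.67 against the unbound RNA, from 0.10 in cocaine IP 1 to -1.60 in cocaine IP 5. Fosb (-0.07 ± 0.23), Junb (0.06 ± 0.38) and Jund (0.11 ± 0.36) had libraries on both sides of 0. Junb was thus near its unbound level after cocaine and above its input level after saline. The references are different fractions of different treatments, so these ratios were not tested against each other. Jun stood below its reference in 8 of 8 IP libraries.

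**Figure D5:**
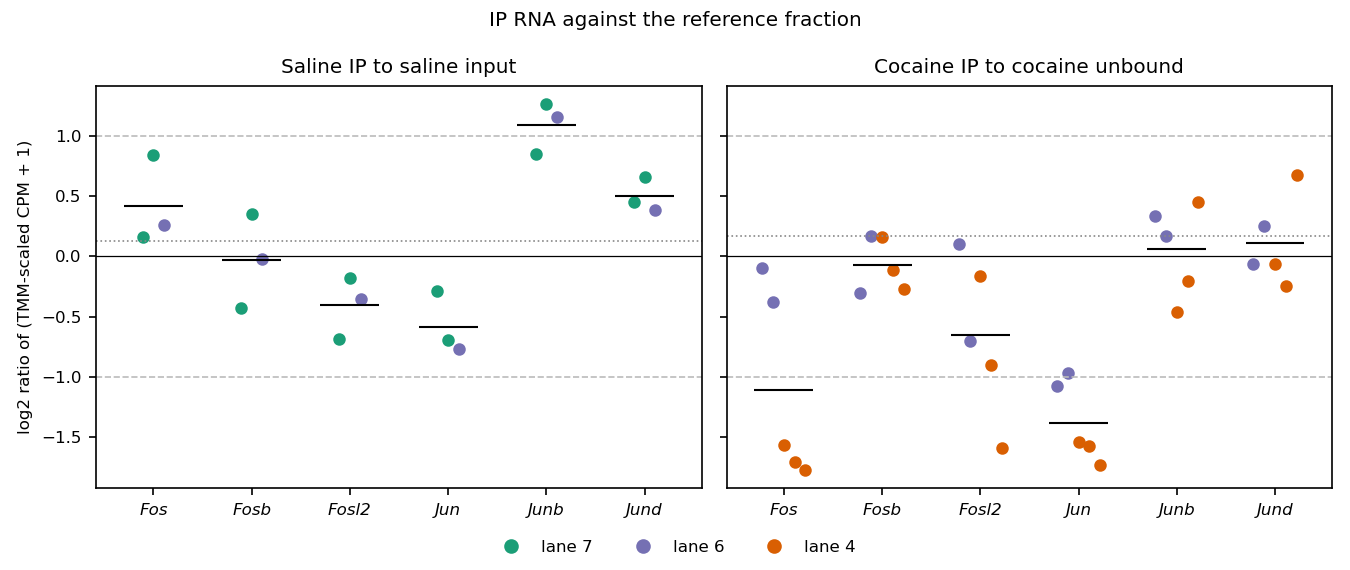
Log2 ratio of each IP library to the saline input (left) or the cocaine unbound library (right) for the 6 measurable members; points are libraries coloured by lane, short bars their means, the dotted line the median of all genes and the dashed lines 2-fold. Junb is at 0.85, 1.27 and 1.16 on the left and Jun between -0.97 and -1.74 on the right. Both references were run in lane 1, apart from all IP libraries.

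The proteins that act with AP-1 were read from lists of genes. Of 16 bZIP partners, 13 could be tested for cocaine against saline, and 6 were higher, 7 lower and 0 called by edgeR, with a median log2 difference of -0.04. The smallest p values belonged to Atf2, which pairs with c-Jun (0.21, SE 0.11; 469 CPM after saline and 542.5 CPM after cocaine), and Bach2, a repressor that pairs with small Maf proteins (0.47, SE 0.25). Between lanes they were Ddit3 (-0.18, SE 0.17) and Bach1 (0.29, SE 0.31), and the median was -0.04.

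All 15 kinases upstream of AP-1 were tested, with 7 higher, 8 lower and 0 called after cocaine and a median of -0.04. Mapk8, which encodes the kinase JNK1, was at 222 CPM after cocaine and 197 CPM after saline (0.18, SE 0.09) with no overlap of the groups, beside 1.15% of all genes that were higher without overlap. Rps6ka5, which encodes MSK1, differed by 0.19 (SE 0.12). Between lanes 3 of 15 kinases were lower and 2 higher without overlap, beside 12.5% and 9.81% of all genes, with Mapk14 (p38 alpha) at 0.26 (SE 0.15) and Mapk3 (ERK1) at -0.23 (SE 0.15).

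Of 10 factors of the Fos promoter, 3 were higher, 7 lower and 0 called after cocaine, with a median of -0.04. Creb1, the cAMP response element binding protein, differed by 0.25 (SE 0.12) and Elk3, a partner of serum response factor, by 0.73 (SE 0.36). Between lanes Elk4, another such partner, averaged 62.0 CPM in lane 4 and 36.1 CPM in lane 6 (0.78, SE 0.20, edgeR unadjusted p = 0.00419, adjusted p = 0.862). It was the 1 of 10 factors that was higher without overlap, beside 9.81% of all genes. Elk1 differed by -0.14 (SE 0.14). Of 6 genes for turnover of Fos and Jun proteins, 4 were higher, 2 lower and 0 called after cocaine (median 0.03), led by Kdm2b (-0.36, SE 0.23) and the ubiquitin ligase gene Rfwd2, also called Cop1 (0.22, SE 0.14). Between lanes Ubr1 (0.20, SE 0.15) and Rfwd2 (-0.17, SE 0.18) led that list.

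Of 12 genes reported as AP-1 or FosB targets in the striatum, 8 were higher, 4 lower and 0 called after cocaine, with a median of 0.03. Ehmt2, which encodes the histone methyltransferase G9a, was at 29.4 CPM after cocaine and 37.6 CPM after saline (-0.35, SE 0.16, edgeR unadjusted p = 0.0485, adjusted p = 0.9998). Actr3, a part of the Arp2/3 actin complex, was higher after cocaine (0.20, SE 0.11). Its groups did not overlap in TMM-scaled CPM, as for 1.15% of all genes that were higher, but they just overlapped in CPM. The lowest cocaine library was at 265.1 CPM and the highest saline library at 265.9 CPM. Between lanes 9 of 12 were higher and 3 lower (median 0.15) and 0 were called. Without overlap 3 were higher and 1 lower, beside 9.81% and 12.5% of all genes. The glutamate receptor gene Gria2 (0.45, SE 0.23) and Cdk5r1, which encodes the p35 activator of Cdk5 (0.29, SE 0.16), led the list. Gria2 stood at 0.11 without cocaine IP 1 and at 0.91 without cocaine IP 2, fits that leave 1 library in lane 6.

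Of 18 other immediate early genes, 16 could be tested. After cocaine 5 were higher, 11 lower and 0 called by edgeR, with a median of -0.19, led by Egr4 (-0.38, SE 0.17) and Arc (-0.72, SE 0.33). Between lanes 3 were higher and 13 lower, with a median of -0.40 beside -0.0027 for all genes, and 0 were called. Without overlap 7 were lower and 1 higher, beside 12.5% and 9.81% of all genes. Dusp1 averaged 31.5 CPM in lane 4 and 49.2 CPM in lane 6 (-0.65, SE 0.16; edgeR unadjusted p = 0.00334, adjusted p = 0.862). With lane as a covariate, which rests on the single saline library of lane 6, the treatment difference was 0.03 for Arc and -0.02 for Egr4. Without the lane 4 libraries it was -0.12 for Arc and -0.13 for Egr4.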

How the data were processed

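The authors deposited unnormalized read counts for gene symbols, in a file for each library. STAR 2.0.0e, HTSeq and the build mm10 are named per the submitters' processing notes. The version of HTSeq, the annotation and the strand setting were not given in the sources used here, so overlapping genes are uncertain. HTSeq's special counters, which name no gene, were left out of library sizes. They include reads in no feature, 12.9% to 14.4% of the IP libraries' assigned, no-feature and ambiguous reads, 25.5% of the input's and 27.4% of the unbound library's. Groups and replicate numbers come from sample titles, lanes from sample descriptions.

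Both tests used edgeR 4.0.16 (R 4.3.3), quasi-likelihood, two-sided, with TMM scaling, filterByExpr, and Benjamini-Hochberg adjustment over all genes tested (threshold 0.05). Cocaine against saline used 8 IP libraries with treatment alone, and lane 4 against lane 6 the 5 cocaine ones. Ratios to the single input or unbound library used genes averaging 1 CPM or more. The steps were tested on simulated counts. DESeq2 1.42.0, other scalings and filters, lane as a covariate, and leaving out libraries or lane 4 were alternatives. Other scalings and added CPM for the patterns were added after seeing the data. Levels per length used exon lengths from GENCODE M21 (GRCm38, the assembly of mm10), and promoter sequence came from RefSeq.

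Members and lists were chosen with earlier results of these data known. Named were all members, in each list the 2 genes with the smallest p per comparison, and the 4 genes nearest to Fos, Fosb and Junb, skipping Gm and Rik symbols. Saline and cocaine IP libraries share numbers 1, 2 and 4, whose deviations from the group means correlated at 0.518, 0.363 and 0.115 over 13800 genes. From these values the numbers were treated as pairs in the number-matched differences and in the replicate block, an alternative, although no label explains them. The main test had treatment as its only term and did not use the pairs. Libraries of 1 group differed beyond counting noise, with a chi-square of at least 21.5 times its degrees of freedom. Counting intervals and floors cover counting error only.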

Additional observations from a re-analysis of the deposited data

How the results depend on the processing

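No setting called a member for cocaine against saline. Leaving out 1 library at a time, the log2 difference ran from -1.36 to -0.36 for Fos, -0.37 to 0.064 for Fosb and -0.046 to 0.37 for Fosl2. It ran from -0.15 to 0.14 for Jun, -0.60 to -0.37 for Junb and -0.17 to 0.11 for Jund. With the replicate block, Jun stood at 0.13 and Jund at -0.16, against 0.14 and -0.15 for the same 6 libraries without it, and unadjusted p under 0.05 was reached by 903 genes with the block and 141 without. The block changed no call. Lane as a covariate, which leaves 1 saline library against 2 in lane 6, gave 0.61 for Fos, 0.55 for Jun and 0.032 for Arc. Without the lane 4 libraries Fos stood at 0.31, Jun at 0.31 and Jund at -0.042. The cause was not tested.

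For lane 4 against lane 6, Fosb was 0.003 with RLE factors and 0.004 with DESeq2. Leaving out 1 library gave -0.24 to 0.26 for Fosb, -0.25 to 0.26 for Jund and -0.003 to 0.68 for Bach1. Calls rose from 0 to 21 higher and 12 lower with no filter and to 3 and 1 with DESeq2, and ran from 0 to 343 higher and 0 to 64 lower when 1 library was left out, the most without cocaine IP 2.

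Against the input, the 211 higher genes became 125 with 5 CPM added, 70 with library size alone and 325 to 377 with 1 library left out, and the 1495 lower became 781 with 5 CPM added and 660 at a mean of at least 5 CPM. Against the unbound RNA, the 478 higher became 294 with 5 CPM added, 247 with library size alone, 828 with lane 6 alone and 728 with lane 4 alone, and the 1231 lower became 756 with 5 CPM added, 1891 with no filter and 556 at a mean of at least 5 CPM. Of the 4 genes nearest to Fos, 3 stayed among the nearest 4 with RLE factors and 4 with library size alone, and for Fosb and Junb 4 of 4 did with both. With 0.1 CPM added, 1, 3 and 4 of the 4 genes nearest to Fos, Fosb and Junb stayed, and with 5 CPM 1, 1 and 3. Of the alternative values of the members' differences, 132 kept direction and side of the threshold, 26 reversed and 2 passed the threshold. The last were of Fos between lanes, with no filter and in a fit with 1 library left in lane 6. The few reads of Fos, Fosl1, Batf and Batf3 limit what can be read from them.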
